A study of Homo sapiens with 12 samples.

Results

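The BCL2 family decides whether mitochondria release the factors that start apoptosis, and 10 of its genes were followed here in A549 cells, an established human lung adenocarcinoma line that is often used as a model of alveolar epithelium. The genes were chosen by name, from the gene symbols of the array platform: the survival genes MCL1, BCL2, BCL2L1 and BCL2A1, the pore-forming effector genes BAX and BAK1, and the BH3-only genes BID, BCL2L11, BBC3 and PMAIP1. All 10 were measured, among 18132 genes in all, through 46 probe sets that the platform assigns to 1 of these symbols alone. Where a gene has several probe sets, its main value comes from the one that was brightest on average across the arrays.

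The study asked how a prior heat shock alters the response of lung epithelium to wounding, and its title names fibroblast growth factor 1. Monolayers on uncoated plastic received no treatment (control), a heat shock of 2 h, a wounding of 4 h, or wounding after a heat shock, with 3 Affymetrix PrimeView arrays in each of 4 groups. The labels name no other agent and no genetic change in any group. No lysis time is stated for monolayers given heat shock without wounding, nor whether replicate arrays stem from different cultures. Tags in the sample descriptions, whose meaning is not given, are shared across groups by arrays of the same replicate number, and those of replicates 1 and 2 differ only in a final letter. The p-values therefore measure the spread between these samples, which may be technical. A549 is a single tumour line, and primary epithelium was not analysed here.

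The arrays were alike in level, with medians of 5.30 to 5.32 on the log2 scale, and replicate arrays correlated at 0.995 or more across genes. In the group given both treatments, replicate 2 stood apart, with an interquartile range of 3.98 against 4.13 to 4.24 for the other 11 arrays. A level under 4.81 is called dim here, the upper quartile of 19 leukocyte and endothelial markers in control. Of 14 markers of lung and alveolar type II epithelium, 10 were above the dim level in control and 11 in each treated group. EPCAM and the keratin genes KRT7, KRT8 and KRT18 were at 9.13 to 13.83 in control, and the surfactant genes SFTPC and SFTPB at 6.08 and 5.26, while SFTPD and SFTPA1 were dim at 3.49 and 2.26. The mean level of 11 leukocyte markers lay between 4.05 and 4.25 on every array. In the group means PTPRC was lowest, at 2.27 to 2.38. Above the dim level were CD68 at 6.84 to 7.18, CD14 at 5.68 to 5.84 and NKG7 at 4.86 to 5.01. A gene was called changed at a limma p-value under 0.05 after Benjamini-Hochberg adjustment over all genes. In bulk RNA, fewer cells with a transcript and less of it per cell cannot be told apart.

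Cells keep the effectors BAX and BAK1 in check with survival proteins that hold them, and with them the BH3-only proteins, in a groove on their surface. BH3-only proteins, made or activated under stress, fill that groove or act on the effectors directly, after which the outer mitochondrial membrane becomes permeable and cytochrome c escapes. MCL1 stands out among the survival proteins because both its RNA and its protein are short-lived. The arrays read RNA only, and protein levels were not measured.

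The sequences just upstream of the start sites of 4 genes are shown because 3 of these genes rose after heat shock and BAK1 did not pass the test, while the heat shock element letters were found at BID and BAK1. RefSeq promoter entries were found for 9 of the 10 genes. Letters are the 250 bases before the outermost start site of the gene, 5′ to 3′ on the coding strand, in build GRCh38.p14, and BID has further start sites inside the gene. Capitals mark matches, on either strand, to the paired heat shock element letters GAANNTTC or TTCNNGAA, the AP-1 letters TGACTCA, the cAMP response element letters TGACGTCA, the C/EBP-ATF letters TGATGNAA, the CCAAT box, the GC box GGGCGG, or the NF-kappaB and serum response element consensus.
BID, chr22:17774666-17774915, minus strand: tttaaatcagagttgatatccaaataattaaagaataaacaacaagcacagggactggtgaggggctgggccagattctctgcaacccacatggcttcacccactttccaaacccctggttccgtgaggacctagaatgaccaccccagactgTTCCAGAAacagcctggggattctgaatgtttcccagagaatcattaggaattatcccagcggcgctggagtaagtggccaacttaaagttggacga
BAK1, chr6:33580277-33580526, minus strand: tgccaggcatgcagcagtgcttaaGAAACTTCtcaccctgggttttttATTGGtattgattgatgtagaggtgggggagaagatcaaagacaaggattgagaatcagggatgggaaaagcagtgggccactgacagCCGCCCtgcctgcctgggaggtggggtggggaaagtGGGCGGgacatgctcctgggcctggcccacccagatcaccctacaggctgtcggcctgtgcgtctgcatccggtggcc
BCL2A1, chr15:79971197-79971446, minus strand: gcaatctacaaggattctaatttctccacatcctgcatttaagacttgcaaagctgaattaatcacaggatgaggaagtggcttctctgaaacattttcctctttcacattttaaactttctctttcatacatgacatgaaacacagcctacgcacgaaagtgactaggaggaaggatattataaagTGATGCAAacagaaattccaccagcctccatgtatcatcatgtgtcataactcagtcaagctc
BCL2L11, chr2:111120664-111120913, plus strand: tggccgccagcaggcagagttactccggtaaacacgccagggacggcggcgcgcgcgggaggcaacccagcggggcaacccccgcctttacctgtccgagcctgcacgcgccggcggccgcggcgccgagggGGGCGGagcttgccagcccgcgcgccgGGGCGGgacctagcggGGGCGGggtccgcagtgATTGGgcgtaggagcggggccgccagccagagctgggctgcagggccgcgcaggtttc

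BID carries TTCCAGAA at position -97 from this start site, and BAK1 carries GAAACTTC at -226 from its own. At the further BID start sites the only matches were GC boxes, with no heat shock element letters. Heat shock element letters are in 6.62% (TTCNNGAA) and 5.78% (GAANNTTC) of 35116 promoter windows of the same length. These shares are per window, and BID has several windows. BCL2A1 carries the C/EBP-ATF letters TGATGCAA at -63 (3.14% of windows hold TGATGNAA). BCL2L11 carries 3 GC boxes and a CCAAT box (42.6% and 32% of windows) and none of the stress element letters. The AP-1 letters, in 4.2% of windows, were found at -113 from a BBC3 start site, and the serum response element consensus, in 1.16%, at -56 from one of BCL2. A match describes the letters and is not a measured binding site. The cAMP response element letters (1.65% of windows) and the NF-kappaB consensus (9.96%) matched none of the windows of these 9 genes.

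The family did not move as one. The 10 genes were chosen with earlier results of these data known, so the shares given beside their counts are no test of the set. After heat shock MCL1, BCL2A1, BID, BCL2L11 and BBC3 rose, 5 of 10, and none fell, beside 4.93% of all genes called higher and 7.92% called lower. After wounding MCL1, BCL2A1 and BCL2L11 rose and BCL2L1 fell, 3 higher and 1 lower of 10, beside 2.27% and 1.31% of all genes. After both treatments the 5 genes of the heat shock group were higher and BCL2L1 was lower than control, beside 8.66% and 14.4% of all genes. The effector genes BAX and BAK1, the survival gene BCL2 and the BH3-only gene PMAIP1 did not pass in any comparison. With cyclic loess scaling, calls over all genes were split more evenly, with 49.6% higher after heat shock in place of 38.4%, 50.1% in place of 37.6% after both treatments, and 53.1% in place of 42.3% for heat shock in wounded monolayers. The median difference from control over the 10 genes was 0.23 after heat shock, 0.15 with wounding and 0.28 under both, while that over all genes was -0.03, -0.03 and -0.01. Without control replicate 1, wounded replicate 1 or wounded replicate 2, the wounding count fell from 4 to 2 genes, MCL1 and BCL2L1.

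**Figure D1:**
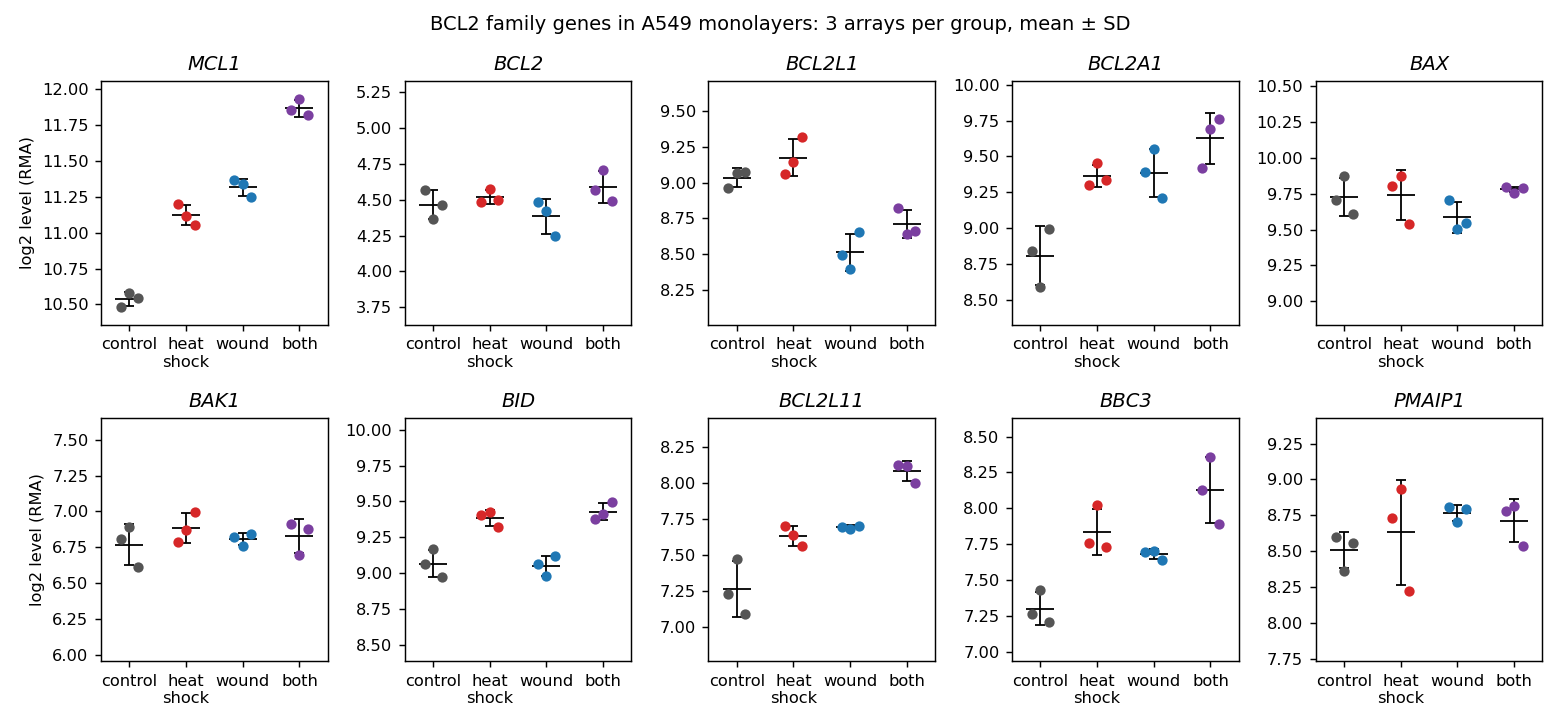
Log2 level of each gene on every array (points, 3 per group), with the group mean and SD in black; all panels have axes of equal length in log2 units. MCL1 climbs in steps from control to both treatments with no overlap between groups, and BCL2L1 is lower on all 6 arrays from wounded monolayers than on the other 6.

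MCL1, the survival gene, gave the largest rise of the 10 in each comparison with control by main probe set, though by a small margin after heat shock. On the log2 scale its level was 10.48, 10.58 and 10.54 in control, 11.20, 11.11 and 11.06 after heat shock, 11.36, 11.34 and 11.25 after wounding, and 11.85, 11.93 and 11.82 after both. No group overlapped another: every heat shocked array was above every control, every wounded array above every heat shocked one, and every array with both treatments above all others. The difference from control was 0.59 ± 0.06 (SE, n = 3) after heat shock, 1.5-fold, with a limma adjusted p of 0.000116. It was 0.78 ± 0.06 after wounding, 1.72-fold (limma adjusted p = 4.54e-05), and 1.33 ± 0.06 after both, 2.52-fold (limma adjusted p = 7.93e-08). After heat shock BCL2A1 at 0.56 and BBC3 at 0.53 were close to MCL1. With the mean of all probe sets BBC3 was at 0.57 and MCL1 at 0.49. Without control replicate 1 or 3 or heat shock replicate 1, BCL2A1 rose by 0.57, 0.65 and 0.59, against 0.56, 0.59 and 0.55 for MCL1.

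Neither effect on MCL1, read by its main probe set, differed detectably with the other treatment present. Heat shock raised it by 0.59 in unwounded monolayers and by 0.55 ± 0.06 in wounded ones (limma adjusted p = 0.000175). Wounding raised it by 0.78 without heat shock and by 0.75 ± 0.06 after it (limma adjusted p = 7.22e-05). The interaction, which is the difference between these effects, was -0.04 with a 95% interval of -0.23 to 0.16 and did not pass (limma adjusted p = 0.961). Without the array that stood apart, MCL1 was 1.30 above control after both treatments, and it passed all 5 comparisons of groups under each of the 22 alternatives run.

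MCL1 has 6 probe sets on the array, and 4 of them rose in each comparison with control. Those 4 gave 0.59 to 0.78 after heat shock, 0.78 to 1.15 after wounding and 1.28 to 1.66 after both. The other 2, both designed from the same expressed sequence tag, differed by 0.21 and 0.04 after heat shock, -0.06 and 0.05 after wounding, and 0.19 and 0.25 after both, and none of these passed. They were at 8.31 and 5.10 in control, above the dim level, and which part of the transcript they read was not tested. The main probe set carries the suffix that Affymetrix gives to sets shared between transcripts. The set at 5.10 carries that for sets that may match other sequences, and the one at 8.31 that for sets within a gene. The other 3 that rose also carry the suffix for sets within a gene. Those 3 gave interactions of -0.23, -0.43 and -0.27, and none passed. In the one at -0.43, heat shock in wounded monolayers gave 0.24 and did not pass (limma adjusted p = 0.175). In that comparison 3 of the 6 probe sets passed.

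BCL2L1 moved the other way. It encodes BCL-XL, the second main survival protein of many epithelial tumours, and a shorter splice form with the opposite action, and the probe sets were not assigned to either form. On the log2 scale BCL2L1 stood at 8.96, 9.07 and 9.07 in control, 9.06, 9.14 and 9.32 after heat shock, 8.49, 8.40 and 8.65 after wounding, and 8.82, 8.64 and 8.66 after both. All 6 arrays from wounded monolayers were below all 6 from unwounded ones. BCL2L1 fell by 0.52 on the log2 scale after wounding (SE 0.09, n = 3; limma adjusted p = 0.00546), to 0.70 of the control level. After heat shock it differed by 0.14 ± 0.09 (limma adjusted p = 0.374).

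In heat shocked monolayers wounding also lowered BCL2L1, by -0.46 ± 0.09 (limma adjusted p = 0.00947). Against control the heat shocked and wounded group was at -0.32 ± 0.09 (limma adjusted p = 0.0181). That call was lost without control replicate 2 or 3 or without replicate 2 or 3 of the combined group, where the difference was -0.31, -0.30, -0.29 and -0.30 and the limma adjusted p lay between 0.0521 and 0.0622, and with cyclic loess scaling (-0.25, limma adjusted p = 0.0626). The 3 probe sets of BCL2L1 disagree on heat shock, with 0.14, -0.32 and 0.34, none past the threshold. After wounding all 3 were lower (-0.52, -0.23 and -0.20), but only the main one passed (limma adjusted p over all probe sets = 0.00789, 0.489 and 0.521). The main one carries the suffix that Affymetrix gives to sets that may also match other sequences, and the others do not. The mean of the 3 gave -0.32 (limma adjusted p = 0.0969). After both treatments they were lower by -0.32, -0.49 and -0.09, and 2 passed.

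**Figure D2:**
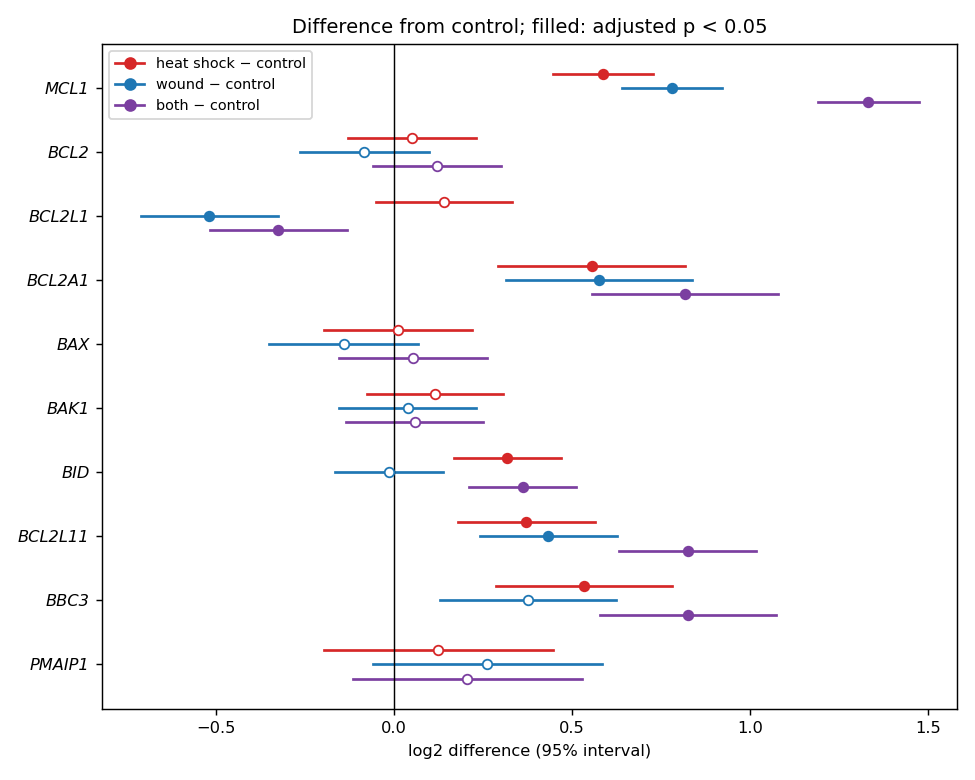
Log2 difference of each gene from control with its 95% interval from limma, after heat shock, wounding and both; filled points passed an adjusted p of 0.05. MCL1 lies farthest to the right at 0.59, 0.78 and 1.33, and BCL2L1 is the only gene with filled points left of 0.

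BCL2A1 encodes a survival protein best known from leukocytes and from its induction by NF-kappaB. Its log2 level was 8.84, 8.59 and 9.0 in control, 9.30, 9.45 and 9.34 after heat shock, 9.39, 9.55 and 9.21 after wounding, and 9.42, 9.69 and 9.76 after both. Each treated group lay wholly above control, and the treated groups overlapped one another. The rise was 0.56 ± 0.12 after heat shock (SE, n = 3; 1.47-fold; limma adjusted p = 0.00952), 0.58 ± 0.12 after wounding (1.49-fold; limma adjusted p = 0.019) and 0.82 ± 0.12 after both (1.76-fold; limma adjusted p = 0.000357). The wounding call was lost without control replicate 1 or 2 or wounded replicate 1 or 2, where the rise was 0.59, 0.47, 0.57 and 0.49 and the limma adjusted p reached 0.102. The second probe set of BCL2A1 was dim, at 2.34 over the 12 arrays, and did not pass.

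For BCL2A1 the second treatment added 0.24 ± 0.12 (heat shock, in wounded monolayers) and 0.26 ± 0.12 (wounding, after heat shock), and neither passed (limma adjusted p = 0.215 and 0.287). Its interaction was -0.31, with a 95% interval of -0.68 to 0.06 (limma adjusted p = 0.757), the largest in size among the 10 genes. Beside this, the mean of 11 leukocyte markers per array was 4.11 to 4.15 in control and 4.08 to 4.25 after both treatments. PTPRC was dim in all groups, and 3 of the 11, CD68, CD14 and NKG7, were above the dim level in each. That count was largely fixed in advance, because the dim level was set from these and endothelial markers in control.

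BCL2, the founding survival gene, was dim. Its group means lay between 4.38 and 4.59 and all 6 probe sets were under the dim level, at 2.59 to 4.49 over the 12 arrays. Differences from control were 0.05, -0.08 and 0.12 for heat shock, wounding and both, each with a SE of 0.08, and none passed (limma adjusted p = 0.786, 0.776 and 0.349). At such levels RMA compresses differences, so a change in BCL2 may not be detectable with these arrays.

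The BH3-only genes BCL2L11 and BBC3, which promote death, both rose after heat shock and after both treatments, as MCL1 did, and of the pair only BCL2L11 passed after wounding. BCL2L11 encodes BIM, a BH3-only protein that binds all the survival proteins. Its log2 level was 7.23, 7.47 and 7.09 in control, 7.70, 7.64 and 7.56 after heat shock, 7.70, 7.68 and 7.71 after wounding, and 8.13, 8.12 and 8.0 after both. Both single treatments lay above control and overlapped each other, and the arrays with both treatments lay above all the rest. The rise was 0.37 ± 0.09 after heat shock (SE, n = 3; 1.29-fold; limma adjusted p = 0.0151), 0.43 ± 0.09 after wounding (1.35-fold; limma adjusted p = 0.0165) and 0.82 ± 0.09 after both (1.77-fold; limma adjusted p = 3e-05). Heat shock added 0.39 ± 0.09 in wounded monolayers and wounding added 0.45 ± 0.09 after heat shock, and both passed (limma adjusted p = 0.0107 and 0.0112).

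The BCL2L11 calls after single treatments rested on few arrays. The heat shock call was lost when control replicate 1 (0.36), control replicate 3 (0.28) or the first heat shock array (0.34) was left out, with a limma adjusted p up to 0.0663. The wounding call was lost without control replicate 1 (0.42), control replicate 3 (0.35), wounded replicate 1 (0.43) or wounded replicate 2 (0.44), with a limma adjusted p up to 0.0762. The array gives BCL2L11 14 probe sets. Against control 1 rose after heat shock, 4 with wounding and 6 under both, and none fell. Of all probe sets, 8.82%, 2.26% and 17.9% were called in these comparisons, in either direction. For heat shock in wounded monolayers 2 of the 14 rose and 1 was lower, at -0.45 (limma adjusted p over all probe sets = 0.00671). That set was dim, at 4.19 over the 12 arrays. One that reads 6.11 over the 12 arrays rose by 1.03 after wounding and 1.09 after both, more than the main one, while the one at 6.05 differed by -0.02 and 0.15. Averaged over all 14, the difference was 0.21 after heat shock (limma adjusted p = 0.0606) and heat shock added only 0.06 in wounded monolayers (limma adjusted p = 0.58). The gene makes several splice forms, and which of them each probe set reads was not tested.

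BBC3 encodes PUMA, a BH3-only protein and a classical target of p53. Its log2 level was 7.26, 7.43 and 7.20 in control, 7.76, 8.02 and 7.73 after heat shock, 7.69, 7.70 and 7.64 after wounding, and 8.13, 8.36 and 7.89 after both. Every treated array was above every control. The rise was 0.53 ± 0.11 after heat shock (SE, n = 3; 1.45-fold; limma adjusted p = 0.00862) and 0.83 ± 0.11 after both (1.77-fold; limma adjusted p = 0.000212). The difference of 0.38 ± 0.11 after wounding did not pass (limma adjusted p = 0.117), although it did without replicate 2 of the combined group, which enters there only through the estimate of spread (limma adjusted p = 0.0496), and in fits of the groups compared alone, with an intensity trend and with array weights (limma adjusted p from 0.0125 to 0.0394). Both probe sets of BBC3 rose after heat shock (0.53 and 0.60) and after both treatments (0.83 and 0.92). Heat shock in wounded monolayers gave 0.45 ± 0.11 (limma adjusted p = 0.02), a call lost without wounded replicate 1 or 3 or without replicate 1 or 2 of the combined group (0.46, 0.43, 0.45 and 0.33; limma adjusted p up to 0.0707).

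**Figure D3:**
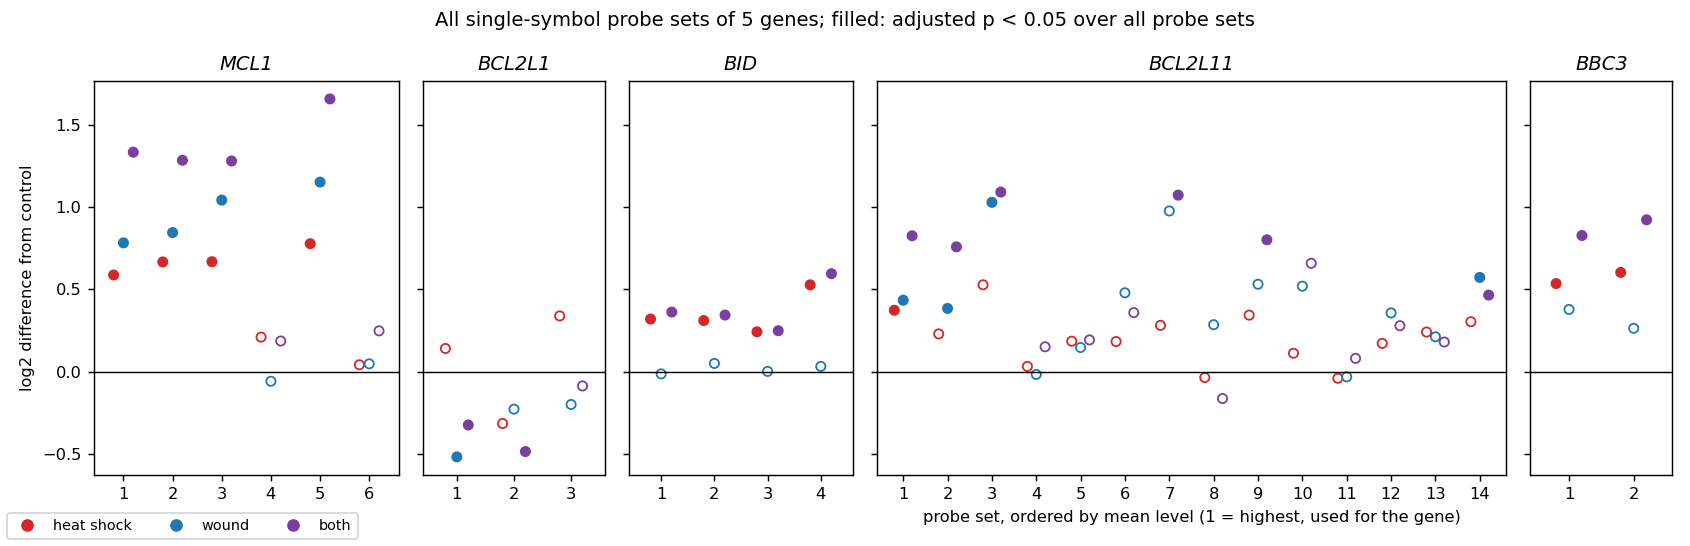
Log2 difference from control for every probe set of MCL1, BCL2L1, BID, BCL2L11 and BBC3, in order of mean level; filled points passed an adjusted p of 0.05 over all 49292 probe sets. All 4 BID probe sets rise after heat shock and both treatments, 4 of 6 for MCL1 rise in every comparison with control, and those of BCL2L1 and BCL2L11 scatter.

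BID followed heat shock alone. Its protein links death receptors to mitochondria, since caspase 8 cuts it into an active form. Its log2 level was 9.06, 9.16 and 8.97 in control, 9.40, 9.43 and 9.33 after heat shock, 9.06, 8.98 and 9.12 after wounding, and 9.38, 9.41 and 9.49 after both. The 6 heat shocked arrays, wounded or not, were above all 6 arrays without heat shock. BID rose by 0.32 ± 0.07 after heat shock (SE, n = 3; 1.25-fold; limma adjusted p = 0.00971) and by 0.38 ± 0.07 in wounded monolayers (1.30-fold; limma adjusted p = 0.00354). Wounding changed it by -0.01 ± 0.07 (95% interval -0.17 to 0.14; limma adjusted p = 0.966), and by 0.04 ± 0.07 after heat shock (limma adjusted p = 0.823). All 4 BID probe sets rose after heat shock, by 0.24 to 0.53, and after both treatments, by 0.25 to 0.59, and none passed after wounding.

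PMAIP1 encodes NOXA, the BH3-only protein that binds MCL1 and promotes its degradation. On the log2 scale PMAIP1 stood at 8.60, 8.36 and 8.56 in control, 8.73, 8.94 and 8.22 after heat shock, 8.80, 8.70 and 8.80 after wounding, and 8.78, 8.82 and 8.54 after both. The heat shocked arrays spread widely and included both the lowest and the highest value of all 12, while the wounded arrays lay just above control. The differences from control were 0.12, 0.26 and 0.21, each with a SE of 0.15, and none passed (limma adjusted p = 0.687, 0.508 and 0.374). The 95% intervals, which reach 0.45, 0.58 and 0.53, still allow rises of the size measured for BCL2L11 after single treatments. Its second probe set gave 0.11, 0.23 and 0.10.

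The effector genes BAX and BAK1 form the pores in the outer mitochondrial membrane. BAX was at 9.70, 9.87 and 9.61 in control, 9.81, 9.87 and 9.54 after heat shock, 9.71, 9.5 and 9.55 after wounding, and 9.79, 9.76 and 9.79 after both. BAK1 was at 6.80, 6.89 and 6.61 in control, 6.79, 6.87 and 7.0 after heat shock, 6.82, 6.76 and 6.84 after wounding, and 6.91, 6.69 and 6.87 after both. Groups overlapped for both genes, apart from BAX in wounded monolayers, which was lower on all 3 arrays than on the 3 with both treatments. After both treatments the 95% interval of the difference from control was -0.16 to 0.26 for BAX and -0.13 to 0.25 for BAK1. These intervals leave out the size of the MCL1 rise. The 2 probe sets of BAX and 5 of BAK1 passed in no comparison with control.

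Counted by probe set, 12 of the 46 passed after heat shock, 10 following wounding and 19 with both treatments, beside 8.82%, 2.26% and 17.9% of all 49292 probe sets. The heat shock count fell to 7 without control replicate 3 and to 6 without heat shock replicate 2, and the wounding count fell to 6 without wounded replicate 1 or 2.

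Each treatment was then compared in the presence of the other. Heat shock in wounded monolayers raised MCL1, BID, BCL2L11 and BBC3, 4 of 10, and lowered none, beside 6.31% and 8.6% of all genes. Wounding after heat shock raised MCL1 and BCL2L11 and lowered BCL2L1, beside 2.71% and 1.58% of all genes. None of the 10 passed the interaction in limma, and none had an unadjusted p under 0.05 there, beside 0.00552% of all genes called and 1302 of 18132 with an unadjusted p under 0.05. The intervals of the interaction ran from -0.23 to 0.16 for MCL1, -0.22 to 0.32 for BCL2L1, -0.25 to 0.29 for BCL2L11, -0.44 to 0.26 for BBC3 and -0.16 to 0.27 for BID.

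**Figure D4:**
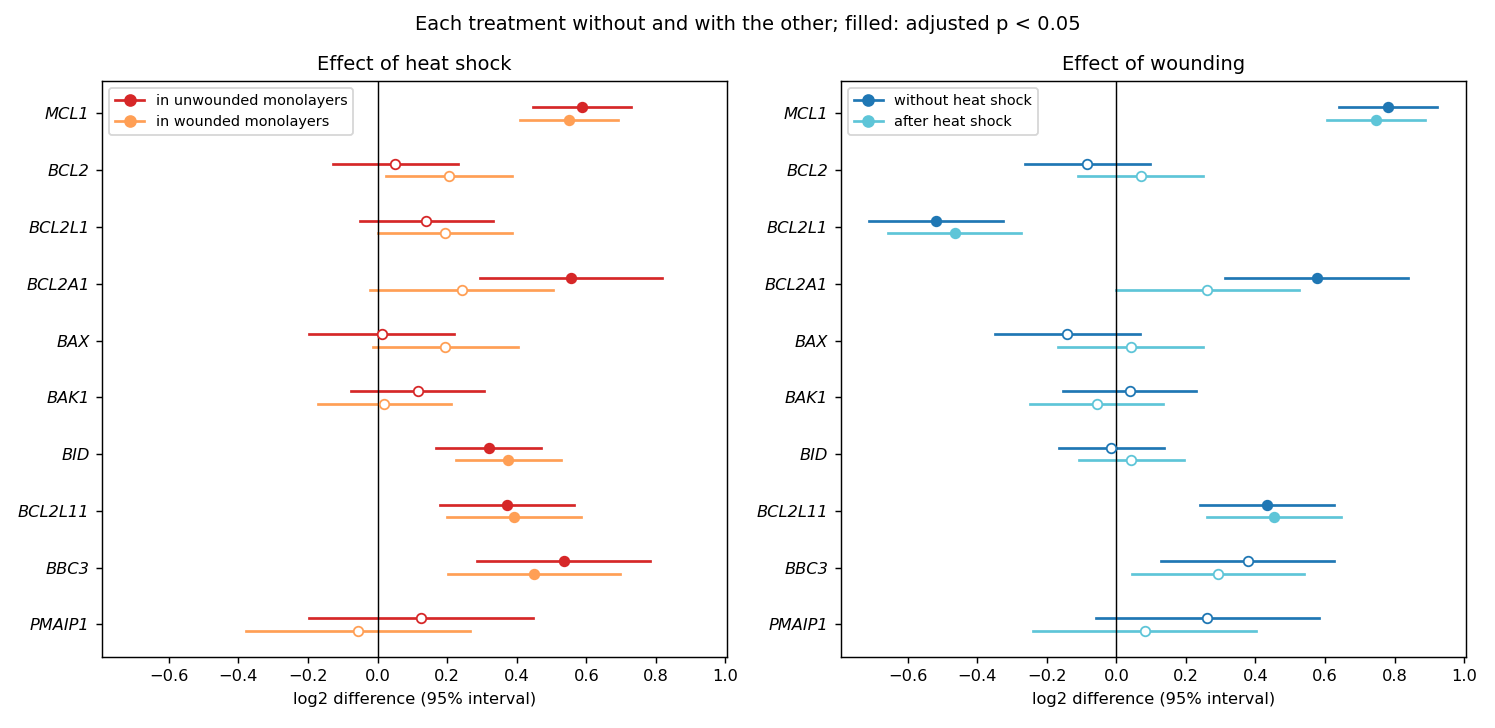
Log2 effect, with 95% interval, of heat shock in unwounded and wounded monolayers (left) and of wounding without and after heat shock (right); filled points passed an adjusted p of 0.05. The paired intervals overlap for all 10 genes, as for MCL1 at 0.59 and 0.55 for heat shock and 0.78 and 0.75 for wounding.

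Over the 12 arrays, which share their treatments, MCL1 ran with BCL2L11 (Pearson r = 0.96), BBC3 (r = 0.88) and BCL2A1 (r = 0.87), and against BCL2L1 (r = -0.55). Among all genes the patterns most like that of MCL1 were those of the transcription factor genes ETS2 (r = 0.994), KLF7 (r = 0.989) and FOXP1 (r = 0.987). For BCL2L1 they were RNF19A (0.973), CDC25B, which encodes a mitotic phosphatase (0.960), and PKP2, which encodes the desmosomal protein plakophilin 2 (0.946). BID ran closest with SLC12A7 (0.98), the myosin gene MYO5B (0.97) and SPR (0.97), and the list for BCL2L11 held RHCG (0.965) and RSPRY1 (0.965). For BCL2A1 they were VRK2 (0.971), SVIL (0.954) and TUFT1 (0.953), and for BBC3 EEIG1 (0.970), PRELID3A (0.969) and FYB1 (0.965). These values are given without a test.

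Of 16 further BCL2 family and BNIP genes, none passed after a single treatment. After both, 1 rose: BCL2L10, by 0.31 ± 0.09 (limma adjusted p = 0.0299), from a dim level of 3.03. Shares of all genes called higher and lower were 4.93% and 7.92% after heat shock and 2.27% and 1.31% after wounding. After both they were 8.66% and 14.4%, so the 1 higher gene of 16 is near the share of genes at large. The median difference of the 16 genes after both treatments was 0.06, against -0.01 over all genes. Among 12 genes that act on MCL1 protein turnover, none rose, 2 fell after heat shock and 4 after both, beside 7.92% and 14.4% of all genes called lower, and none passed in the wounded group. BTRC, which encodes an F-box subunit of a ubiquitin ligase, fell by 0.53 on the log2 scale after both (limma adjusted p = 0.000384). CDC20, an activator of the anaphase-promoting complex, fell by 0.47, the deubiquitinase gene USP13 by 0.37 and USP9X, whose product removes ubiquitin from MCL1, by 0.20. Their median difference after both was -0.10. Without the array that stood apart, BTRC also fell after heat shock (-0.26), and USP9X did not pass after both.

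Around and beyond the mitochondria, 14 genes of the apoptosis machinery held none that rose, while 2 fell after heat shock, 1 with wounding and 3 under both. All genes were called lower at shares of 7.92%, 1.31% and 14.4% in these comparisons, so the count after both is near that of genes at large. The median of the list after both was -0.08. The caspase gene CASP2 fell in all 3 comparisons, by 0.36, 0.33 and 0.67 on the log2 scale (limma adjusted p = 0.00149, 0.00611 and 4.53e-06). After both treatments the outer membrane channel gene VDAC3 fell by 0.29 and CYCS, which encodes cytochrome c, by 0.25. Without the array that stood apart, DFFA, which encodes the inhibitor of the apoptotic DNase, also passed, at 0.31 after heat shock and 0.31 after both. Of 6 inhibitor of apoptosis genes, 1 fell after heat shock, 1 rose with wounding, and 1 rose and 2 fell after both. Beside this stand the same shares of all genes called lower, with 2.27% called higher after wounding and 8.66% after both. BIRC2 rose by 0.30 after wounding and by 0.19 after both. BIRC5, which encodes survivin and is made in dividing cells, fell by 0.33 after heat shock and 0.41 after both. After both, BIRC6 fell by 0.28. Without the array that stood apart, BIRC5 alone of the 6 passed after both treatments, at -0.42. The median of the 6 after both was 0.05.

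The receptor-driven branch upstream of BID held 13 measured genes. TNFRSF10B, which encodes the TRAIL receptor DR5, rose in every comparison with control, by 0.41 ± 0.08 after heat shock, 0.51 ± 0.08 with wounding and 0.79 ± 0.08 under both (SE, n = 3; limma adjusted p = 0.00429, 0.00274 and 1.45e-05). After heat shock TNFRSF10A rose by 0.27 and TRADD fell by 0.27. After both treatments 5 of the 13 rose and 1 fell, with TNFRSF10D at 0.58, TNFRSF1A at 0.40, the adaptor gene FADD at 0.39, TNFRSF10A at 0.38 and TRADD at -0.32. The shares over all genes were then 8.66% higher and 14.4% lower, and the median of the 13 was 0.06. Among 20 genes of transcription factors known to act on BCL2 family genes, or of their regulators, 3 rose and 1 fell after heat shock, 3 rose after wounding, and 7 rose and 2, HIF1A and STAT3, fell after both (-0.29 and -0.28), with a median of 0.19. Over all genes, 4.93% were higher and 7.92% lower after heat shock, 2.27% higher after wounding, and 8.66% higher and 14.4% lower after both. JUN rose by 0.64, 1.30 and 1.71, ATF3 by 1.23 after wounding and 1.04 after both, and NFKB1 by 0.61 and 0.63 in the same comparisons. CEBPB rose by 0.67 after heat shock and 0.63 after both, and TRIB3 by 0.79 and 0.60 in the same comparisons. RELB, an NF-kappaB subunit gene, fell by 0.32 after heat shock. Without the array that stood apart, TP73 also fell after heat shock (-0.24) and E2F1 after both (-0.62), and SRF did not pass after both.

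**Figure D5:**
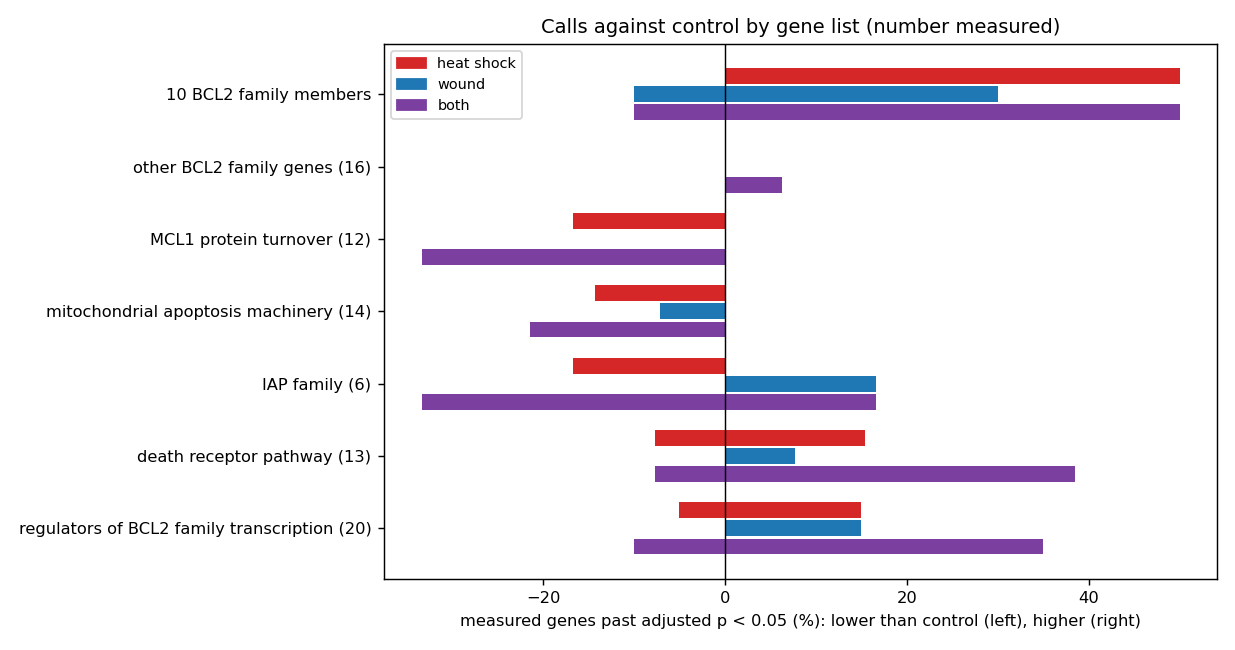
Share of measured genes called higher (right) or lower (left) than control, in percent, for the 10 BCL2 family genes and 6 related lists, with the number measured in brackets. Among the 10 genes, 5 are higher after heat shock and after both treatments, while the turnover and apoptosis machinery lists extend only to the left. Shares over all genes are not drawn. They were 4.93% higher and 7.92% lower after heat shock, 2.27% and 1.31% after wounding, and 8.66% and 14.4% after both. The machinery count after both is near that share.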

How the data were processed

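RNA of 12 A549 monolayer samples, 100 ng each, was labelled with a 3' IVT kit and read on PrimeView arrays, as the labels' protocols state. The table the authors deposited gives log2 levels for 49293 probe sets. Per the submitters' processing notes, RMA and Affymetrix Expression Console were used, and the version is not given in the sources used here. RMA corrects background, sets the arrays to 1 distribution and sums probes, and it compresses differences at dim levels. Scanner files and detection p-values were not used here. Of 49292 probe sets with a value on every array, 44987 had 1 gene symbol in the platform annotation.

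All 12 arrays entered 1 linear model, a mean for each group, in limma 3.58.1 (R 4.3.3; lmFit, contrasts.fit, eBayes; 8 residual degrees of freedom). Adjusted p-values are Benjamini-Hochberg, over 18132 genes, or over all probe sets where probe sets were counted. Errors after ± are SE of differences. Intervals are 95% limma intervals. The test was checked on artificial data of known answer. The members, lists and comparisons were chosen with earlier results of these data known. All 10 members are named, with up to 4 called genes per list and comparison (where none was called, the 1 with the smallest p), and, for members called against control, the 3 genes with the highest correlation, of which 1 is not reported here. The text gives part of these list genes. The model had no replicate block. Alternatives changed the scaling, the probe set, the filter on low levels, the samples fitted, the variance model, array weights, the replicate block and 1 array at a time. For the gene lists, leaving out the array that stood apart was chosen after seeing the data.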

Additional observations from a re-analysis of the deposited data

Results flagged for a closer look

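BAX was the only gene of the 10 whose arrays moved in opposite directions under the same contrast. All 3 wounded arrays were below the control mean, and all 3 arrays with both treatments were above the mean of heat shock alone. The interaction, which tests this difference, was 0.18 and did not pass (limma adjusted p = 0.824).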

How the results depend on the processing

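Over 10 genes and 6 comparisons, 22 differences were called, and 13 of them kept their call under all 22 alternatives run; none changed sign. The 5 MCL1 calls are among the 13. The other 9 were lost under 1 to 5 alternatives, and 2 uncalled differences passed under at least 1: BBC3 after wounding, and BCL2L1 for heat shock in wounded monolayers with array weights (0.27, limma adjusted p = 0.0266). Using the probe set with the highest variance, BCL2L11 lost its heat shock call (0.28), and heat shock in wounded monolayers gave 0.10 and wounding after heat shock 0.79, neither passing. Fitting only the groups compared, BCL2L1 for wounding after heat shock and BBC3 for heat shock in wounded monolayers did not pass (limma adjusted p = 0.0604 and 0.0543).

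Leaving out 1 array at a time gave 1438 to 2594 genes called for heat shock (2330 with all arrays), 306 to 722 for wounding (648), 1649 to 2936 for heat shock in wounded monolayers (2704), 498 to 790 for wounding after heat shock (779) and 1 to 2 for the interaction (1). Members called after wounding ranged from 2 to 5, and their probe sets from 6 to 13 after heat shock and 6 to 11 after wounding. Array weights gave 3871 genes for heat shock and 1436 for wounding. Fits of the groups compared alone gave 1663 for heat shock in wounded monolayers and 300 for wounding after heat shock. The interaction count was 0 with the mean of all probe sets and 2 with an intensity trend. With cyclic loess, 1092 genes were higher and 1110 lower after heat shock (894 and 1436 as deposited), 1935 and 1928 after both (1571 and 2609), and 1320 and 1168 for heat shock in wounded monolayers (1144 and 1560), so the background shares of higher and lower calls depend on the scaling. A replicate block changed 1 of 60 member calls: BBC3 after wounding passed (0.38, limma adjusted p = 0.0268). Deviations of same-numbered arrays correlated at a median of 0.06, with 6 of 18 pairs over 0.1, and 5 of 12 arrays were closest to their own number. Those of differently numbered arrays correlated at a median of -0.03, with 7 of 36 pairs over 0.1. Same-numbered pairs were thus somewhat higher, and pairing by number was not settled. Tags shared across groups in the sample descriptions have no stated meaning, so a shared batch was not settled either. Dim levels limit BCL2 and the second BCL2A1 probe set.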
